A study of Rattus norvegicus with 4 samples.

Results

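Genes that carry fatty acids into cells, burn them in mitochondria or build them were followed in rat myometrium, which is the muscular wall of the uterus. The set was a list of 46 gene symbols, and a probe set of the array belonged to it when the platform annotation gave it exactly 1 symbol and that symbol was in the list. This found 66 probe sets of 8740, for 40 of 4736 genes named in this way. Crat, Acaa1a, Etfb, Fads1, Fads2 and Pltp had no such probe set. The genes were placed in 3 groups by role, oxidation with 18 genes on the array, synthesis with 6, and uptake and binding with 16. The rats were 60 days old and had lost their ovaries a week before treatment, which holds for all groups. They received estradiol benzoate, a slowly released ester of estradiol, under the skin at 10 µg per kg, or vehicle. The groups were estradiol at 24 h, control at 24 h, estradiol at 6 h and control at 6 h. Each was 1 Affymetrix array with RNA pooled from 6 animals, so no spread between animals or replicates was measured.

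Long fatty acids enter cells with the help of lipoprotein lipase and membrane carriers and are bound in the cytosol by small fatty acid binding proteins. Acyl-CoA synthetases activate them, and carnitine palmitoyltransferases pass them into mitochondria, where repeated cycles of beta-oxidation shorten them. New fatty acids are built from citrate by ATP citrate lyase, acetyl-CoA carboxylase and fatty acid synthase, and stearoyl-CoA desaturase adds a double bond. The PPAR receptors and SREBP-1 are transcription factors known to control many of these genes in liver, muscle and fat.

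Estrogen-induced genes of the uterus checked the labels, and Hsd11b2, Igf1, Pgr and S100g did not follow them at 6 h. All 4 passed a 2-fold difference at both times, upward with estradiol at 24 h and downward with the estradiol label at 6 h. The signal of the growth factor gene Igf1 was 5182 with estradiol against 665 in the control at 24 h, and 704 with the estradiol label against 7872 with the control label at 6 h. Directions at 6 h below are therefore those of the arrays as labelled, and whether the 2 arrays of 6 h were exchanged was not tested. If they were, every 6 h direction below would turn. Both arrays of a time were scanned on the same day, and the 2 times on different days, so an effect of time cannot be told apart from one of scan day. The wash record of the 24 h control array holds a communication error. Of 4474 probe sets above the floor on each of the other 3 arrays, 263 (5.88%) were at least 2-fold lower on that array than on all of these, and of 40 such member probe sets 0 were. The defining markers of smooth muscle, among them Acta2, Myh11 and Tagln, were bright on all arrays, with summed signals of 95653 with estradiol against 87878 in the control at 24 h. The sums of the 6 h arrays were 61611 with the estradiol label and 80776 with the control label.

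A signal counted as measured when it was above a floor, the 40th percentile of its array, which lay between 89.5 and 108 signal units. The brightest probe set stood for a gene, which passed the 2-fold rule when the 2 arrays of a time differed at least 2-fold and the brighter was above its floor. Of the 40 genes 31 were measured on at least 1 array. Hadh, Ehhadh, Acacb, Mgll, Cd36, Fabp1, Fabp2, Fabp7 and Pparg were not. At 24 h 6 member genes were at least 2-fold higher with estradiol, where 9.12% of all measured genes were, and 3 were at least 2-fold lower, where 8.45% of all were. These are 6 and 3 of the 29 members measured on an array of that time. At 6 h 5 of 30 members were at least 2-fold higher on the array labelled estradiol, against a background of 6.88%, and 2 were lower, against 5.41%. With 1 array per group these counts carry no test.

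**Figure D1:**
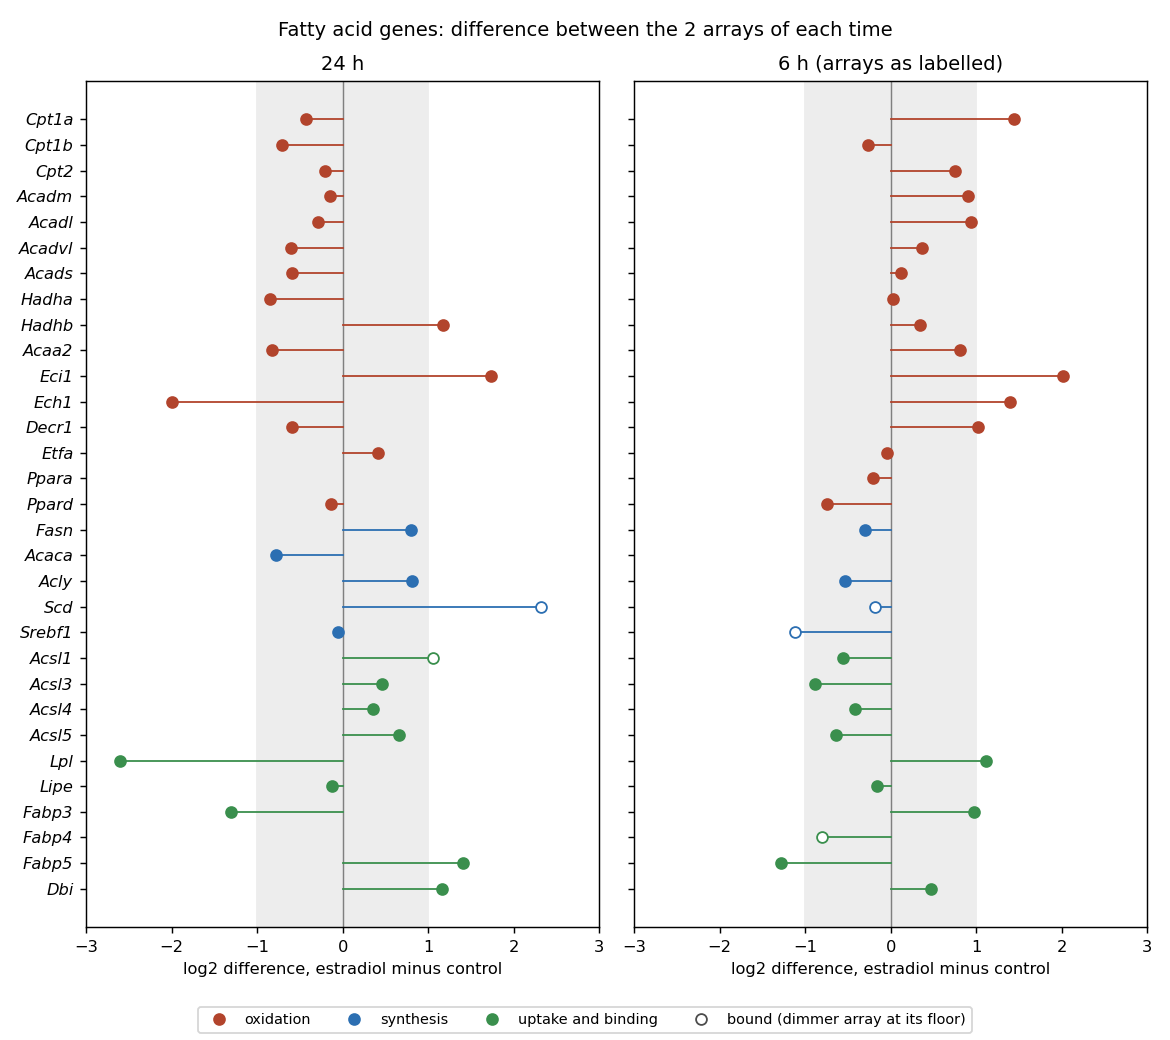
Log2 difference of estradiol minus control for the 31 measured genes at 24 h (left) and for the arrays as labelled at 6 h (right), with colours for the 3 groups, the grey band for differences under 2-fold and open symbols for bounds. Oxidation genes sit mostly left of 0 at 24 h and right of 0 at 6 h, and Lpl at -2.60 and Scd at 2.32 lie at the ends of the 24 h panel.

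Oxidation genes were mostly a little lower with estradiol at 24 h and higher on the array labelled estradiol at 6 h. At 24 h 12 of 15 were lower, 80.0%, where 59.8% of all measured genes were. With arrays scaled to a common median, 11 of 15 were lower. The median log2 difference of the group was -0.43, against -0.17 over all measured genes. At 6 h 12 of 16 were higher, 75%, where 49.4% of all genes were, and the median was 0.56, against -0.01 over all. With the 6 h labels exchanged the same 12 of 16 would be lower, as were 12 of 15 at 24 h. Past the 2-fold rule lay 2 higher and 1 lower gene at 24 h, and 4 higher and 0 lower genes at 6 h. Eci1, whose probe sets disagree as described below, is among the higher genes at both times. No set test was run, and genes on 1 pair of arrays are not independent.

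Ech1, an isomerase that handles double bonds during beta-oxidation, had the largest drop of the group at 24 h. Its signal was 524 with estradiol against 2083 in the control at 24 h, and 1999 with the estradiol label and 759 with the control label at 6 h. It was therefore 3.98-fold lower at 24 h and 2.63-fold higher with the estradiol label at 6 h. The 24 h control and the array labelled estradiol at 6 h were both high. Decr1, the dienoyl-CoA reductase that works on unsaturated fatty acids, read 421 with estradiol against 634 in the control at 24 h, and 511 with the estradiol label against 251 with the control label at 6 h. The difference at 6 h was 2.03-fold, only just past the rule, and the dimmer probe set of Decr1 showed 1.60-fold.

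Eci1, an isomerase that moves double bonds into the place beta-oxidation needs, gave opposite answers from its probe sets. The brightest read 733 with estradiol against 219.6 in the control at 24 h, and 1194 with the estradiol label and 296 with the control label at 6 h, so it was 3.34-fold and 4.03-fold higher. The next read 315 with estradiol against 913 in the control at 24 h, 2.90-fold lower, and 733 with the estradiol label and 343 with the control label at 6 h, 2.14-fold higher. The third, which is dimmer, was under 2-fold at both times, at log2 differences of -0.65 at 24 h and -0.41 at 6 h. The direction of Eci1 at 24 h is thus not settled by these data, and the brightest probe set is the only one of its 3 measured probe sets that was higher then, the other probe set being below the floor on all arrays.

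Entry of long fatty acids into mitochondria runs through Cpt1a, the liver form of the gatekeeping transferase, Cpt1b, its muscle form, and Cpt2 on the inner membrane. Cpt1a had signals of 548 with estradiol against 738 in the control at 24 h, and of 1026 with the estradiol label and 378 with the control label at 6 h. It was 2.72-fold higher with the estradiol label at 6 h and 1.35-fold lower at 24 h. Cpt1b read 290.4 with estradiol against 476 in the control at 24 h, and 462 with the estradiol label against 558 with the control label at 6 h, lower on the arrays labelled estradiol at both times but under 2-fold. Cpt2 read 254 with estradiol against 292 in the control at 24 h, and 262 with the estradiol label against 155 with the control label at 6 h. The liver form and the inner membrane enzyme were thus lower at 24 h and higher at 6 h, while the muscle form was lower at both. For Cpt2 the log2 difference at 24 h was only -0.20, near the median of -0.17 over all measured genes. With arrays scaled to a common median it was -0.06.

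The acyl-CoA dehydrogenases, which start each cycle for chains of different length, were all lower at 24 h and higher with the estradiol label at 6 h, and none passed the rule. Acadm, for medium chains, read 743 with estradiol against 826 in the control at 24 h, and 461 with the estradiol label and 245 with the control label at 6 h. Acadl, for long chains, read 561 with estradiol against 688 in the control at 24 h, and 573 with the estradiol label against 298 with the control label at 6 h. Both lay just under the threshold at 6 h, at 1.88-fold and 1.92-fold higher. At 24 h the log2 differences of Acadm and Acadl were -0.15 and -0.29, where the median over all measured genes was -0.17. With arrays scaled to a common median they were -0.01 and -0.15. Acadvl, for very long chains, was 1.52-fold lower at 24 h and 1.29-fold higher at 6 h, and Acads, for short chains, 1.51-fold lower and 1.09-fold higher. Acaa2, the thiolase that ends the cycle, read 786 with estradiol against 1398 in the control at 24 h, and 1263 with the estradiol label against 722 with the control label at 6 h, 1.78-fold lower and 1.75-fold higher. Etfa, which takes the electrons from the dehydrogenases, read 961 with estradiol against 722 in the control at 24 h, and 604 with the estradiol label against 621 with the control label at 6 h.

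Hadha and Hadhb encode the partner subunits of the mitochondrial trifunctional protein, and their signals did not move alike at 24 h. Their starts lie 301 bases apart on opposite strands of chromosome 6 in the rat build GRCr8, so their promoter windows overlap. The window is shown because the 2 genes share 200 of its bases, which are in capitals, at chr6:31907551-31907850 on the + strand, from RefSeq.
Hadha: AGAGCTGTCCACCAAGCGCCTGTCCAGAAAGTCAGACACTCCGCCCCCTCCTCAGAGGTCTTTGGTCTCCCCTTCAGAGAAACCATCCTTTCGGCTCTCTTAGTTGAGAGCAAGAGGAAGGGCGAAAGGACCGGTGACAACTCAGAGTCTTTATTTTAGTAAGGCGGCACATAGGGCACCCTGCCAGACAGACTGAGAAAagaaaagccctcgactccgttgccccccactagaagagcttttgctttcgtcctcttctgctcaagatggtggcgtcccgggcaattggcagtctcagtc
Hadhb read 1137 with estradiol against 506 in the control at 24 h, and 1170.4 with the estradiol label and 919 with the control label at 6 h. It was 2.25-fold higher at 24 h, with the 24 h control the lowest of the 4 arrays, and 1.27-fold higher at 6 h. Hadha read 1382 with estradiol against 2482 in the control at 24 h, and 1929 with the estradiol label against 1893 with the control label at 6 h with its brightest probe set, which was 1.80-fold lower at 24 h. Its other 2 probe sets differed by log2 values of 0.06 and -0.09 at 24 h, so the drop rests on 1 probe set of 3. All 3 lay within 0.16 of 0 at 6 h on the log2 scale.

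The receptors tied to oxidation stayed under the rule. Ppard, the widely expressed PPAR, read 552 with estradiol against 606 in the control at 24 h, and 501 with the estradiol label and 842 with the control label at 6 h. A dimmer probe set of Ppard was at least 3.66-fold lower with the estradiol label at 6 h, where it read 98.9, below the floor, against 375 with the control label. Ppara, the main PPAR of liver, was below the floor at 24 h, at 75.8 with estradiol and 82.5 in the control, and read 113 with the estradiol label and 130.1 with the control label at 6 h.

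**Figure D2:**
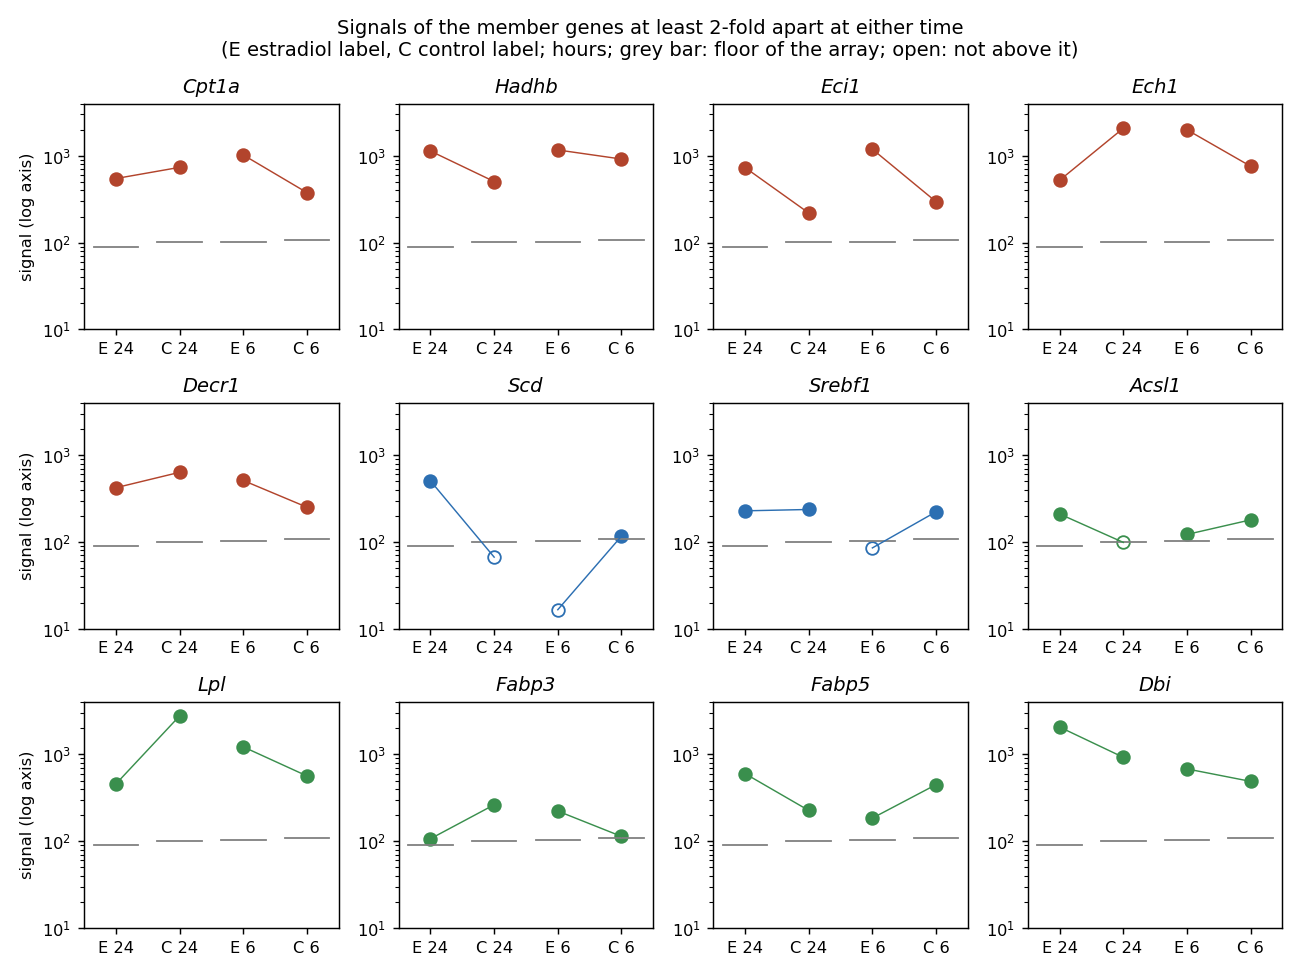
Signals on a log axis of the 12 member genes at least 2-fold apart at either time, on the estradiol (E) and control (C) arrays at 24 and 6 h. Open points are not above the grey floor of their array, lines join the 2 arrays of a time, and Lpl, Ech1 and Fabp5 slope opposite ways at the 2 times.

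Among synthesis genes, Scd, stearoyl-CoA desaturase, had the largest difference at 24 h. Its signal was 505 with estradiol, against 66.7 in the control, which is below the floor, so it was at least 5.01-fold higher. That log2 difference of 2.32 became 1.08 with the mean of its probe sets and 1.02 with a floor at the 60th percentile, still past the rule. At 6 h it read 16.5 on the array labelled estradiol, below the floor, and 117 on the array labelled control, just above it. Only the estradiol array at 24 h was far above its floor, and the other probe set of Scd was below the floor on all 4 arrays. The promoter window is shown because Scd had the largest difference of the synthesis genes, with the 50 bases after the gene start in capitals, at chr1:253231682-253231981 on the - strand of GRCr8, from RefSeq.
Scd: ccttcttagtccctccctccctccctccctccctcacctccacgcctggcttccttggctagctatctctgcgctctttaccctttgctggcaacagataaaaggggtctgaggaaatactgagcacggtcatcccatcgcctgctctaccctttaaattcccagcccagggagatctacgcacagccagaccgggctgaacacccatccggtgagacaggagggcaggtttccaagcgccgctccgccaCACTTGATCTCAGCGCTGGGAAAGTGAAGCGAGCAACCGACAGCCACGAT
Windows of this kind, 300 bases from 250 before the start, were found for 28 of the 40 genes and were searched on both strands. Genes without a window, among them Lpl, Ech1, Fabp5, Decr1, Fasn and Acaca, were not searched. The full estrogen response element, GGTCA and TGACC with any 3 bases between, matched in 0 of the 28 and in 0.0255% of all promoter genes. The paired PPAR and RXR site, AGGTCA repeated after any 1 base, matched in 0 of the 28 and in 0.0619% of all. The sterol response element TCACNCCAC matched in 1 of 28, that of Ehhadh, and in 1.25% of all. The match in Ehhadh, whose signal was not above the floor, reads GTGGTGTGA along its own strand. A missing match says only that these letters are not in the window.

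The other enzymes of synthesis stayed under the 2-fold rule with their brightest probe sets. Acly, which makes acetyl-CoA from citrate, read 2906 with estradiol against 1653 in the control at 24 h, and 1510.2 with the estradiol label and 2188 with the control label at 6 h. This was 1.76-fold higher at 24 h and 1.45-fold lower at 6 h. A second probe set of Acly was 3.12-fold higher at 24 h, with 1299 with estradiol against 416 in the control, and the third was 1.32-fold higher. Fasn, fatty acid synthase, read 896 with estradiol against 516 in the control at 24 h, and 536 with the estradiol label against 657 with the control label at 6 h, 1.74-fold higher and 1.23-fold lower, and its other probe set pointed the same ways. Acaca, the carboxylase of fat-making tissues, read 128 with estradiol against 219 in the control at 24 h, 1.71-fold lower, and was below the floor at 6 h.

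Srebf1, the gene of the transcription factor SREBP-1, barely differed at 24 h, at 228 with estradiol against 236 in the control. At 6 h it read 85.3 with the estradiol label, below the floor, and 222 with the control label, at least 2.17-fold lower. All 4 measured synthesis genes were lower on the array labelled estradiol at 6 h, where 50.6% of all genes were. At 24 h 3 of 5 were higher, where 40.2% of all measured genes were. After quantile normalization or scaling to a common median 4 of 5 were, with Srebf1 added at log2 differences of 0.07 and 0.09. In these settings the genes higher among all 3442 also rose, from 1385 to 1520 and 1645. The median log2 difference of the synthesis genes at 24 h was 0.80, against -0.17 over all measured genes.

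Lpl, lipoprotein lipase, which frees fatty acids from circulating triglyceride, had the largest difference among members measured on both arrays of a time. Its brightest probe set read 456 with estradiol against 2775 in the control at 24 h, and 1222 with the estradiol label and 565 with the control label at 6 h. It was 6.08-fold lower at 24 h and 2.16-fold higher with the estradiol label at 6 h. All 3 of its probe sets passed the rule at 24 h, the other 2 at 4.23-fold and 4.41-fold lower. At 6 h 2 of the 3 passed and the third was 1.64-fold higher.

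Lpl is also made by fat cells, and their markers were read beside it. Of 9 adipocyte markers listed for this purpose 7 were on the array and 6 measured, and their summed signal was 2503 with estradiol against 3871 in the control at 24 h. It was 3934 with the estradiol label and 5009 with the control label at 6 h. Lep made up most of these sums, and at 24 h it read 1901 with estradiol against 2411 in the control, 1.27-fold lower. Cfd, the fat cell protein adipsin, was at least 6.28-fold lower with estradiol at 24 h and Adrb3, the beta-3 adrenergic receptor, 2.70-fold lower. The other measured markers, Slc2a4, Cidea and Ucp1, were under 2-fold at 24 h, and Slc2a4 was 1.12-fold higher. Plin1, the coat protein of fat droplets, was below the floor on all arrays. Markers of endothelium summed to 1790.1 with estradiol against 3783 in the control at 24 h, and to 2328 with the estradiol label and 2220.0 with the control label at 6 h. Cav1 made up most of the 24 h sums, at 1000 with estradiol against 2286 in the control. Of the 6 endothelial markers 2 were at least 2-fold lower at 24 h and 0 higher. At 6 h Kdr was 3.83-fold lower with the estradiol label, at 184 against 705 with the control label. The other endothelial markers were higher with the estradiol label at 6 h, none past the rule, and the median log2 difference was 0.50. In pooled tissue, fewer cells of a type and less RNA per cell cannot be told apart, and the part of these cells in the Lpl result was not tested.

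The fatty acid binding proteins split, with Fabp5 higher and Fabp3 lower at 24 h. Fabp5, the epidermal form, read 600.02 with estradiol against 226 in the control at 24 h, and 184 with the estradiol label and 448 with the control label at 6 h. It was 2.66-fold higher at 24 h and 2.43-fold lower at 6 h. Fabp3, the heart and muscle form, read 107 with estradiol against 263 in the control at 24 h, and 222 with the estradiol label against 113 with the control label at 6 h, 2.46-fold lower and 1.96-fold higher, and its 6 h value lay just under the rule. The 2 genes thus ran opposite to each other at both times. Fabp4, the fat cell form, read 4.66 with estradiol against 10.8 in the control at 24 h, both below the floor. At 6 h it read 6.07 with the estradiol label, below the floor, against 178 with the control label, at least 1.74-fold lower. Dbi, the acyl-CoA binding protein, read 2065 with estradiol against 925 in the control at 24 h, 2.23-fold higher, and 680.2 with the estradiol label against 489 with the control label at 6 h, 1.39-fold higher.

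Epithelial markers moved with Fabp5, and the part of epithelium in its values was not tested. The summed signal of 6 such markers was 3605 with estradiol against 1157 in the control at 24 h, and 652 with the estradiol label and 1773 with the control label at 6 h. Of them 5 were at least 2-fold higher at 24 h and 3 at least 2-fold lower at 6 h. The 10 markers of striated muscle on the array, read because Fabp3 and Cpt1b are muscle forms, summed to 8896 with estradiol against 3634 in the control at 24 h. The 6 h sums were 2982 with the estradiol label and 6780 with the control label, and Myh2, Myh4, Myh7 and Tnni2 were below the floor on all arrays. Acta1, skeletal muscle actin, made up most of these sums, with 7999 with estradiol against 2676 in the control at 24 h, and 1896 with the estradiol label against 5269 with the control label at 6 h.

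The acyl-CoA synthetases, which trap fatty acids by joining them to coenzyme A, shared a direction at both times by their brightest probe sets. All 4 were higher with estradiol at 24 h and lower on the array labelled estradiol at 6 h. Of all genes measured at both times 23.5% were so. Among the synthetases only Acsl1 passed the rule. Its 24 h call was lost with a pseudocount in place of the floor, at a log2 difference of 0.64, and with the mean of its probe sets, at 0.61. Under the 60th percentile floor both 24 h arrays lay at their floors for Acsl1, so its value of -0.13 is only the ratio of the floors. Acsl1 read 209.7 with estradiol against 98.6 in the control at 24 h, at least 2.08-fold higher, and 122 with the estradiol label and 179 with the control label at 6 h. A second probe set was at least 2.84-fold higher at 24 h and at least 1.55-fold higher at 6 h, so the probe sets of Acsl1 disagreed at 6 h. Acsl3 read 517 with estradiol against 375 in the control at 24 h, and 293 with the estradiol label against 541 with the control label at 6 h. Acsl4, which prefers arachidonic acid, read 373 with estradiol against 293 in the control at 24 h, and 268 with the estradiol label against 358 with the control label at 6 h. Acsl5 read 739 with estradiol against 467 in the control at 24 h, and 437 with the estradiol label against 683 with the control label at 6 h. Both measured probe sets of Acsl4 and of Acsl5 pointed the same ways. Among the Affymetrix controls left out of the counts, 9 probe sets of spiked-in transcripts were above the floor on all arrays. On average their ratio of estradiol to control was 1.35 at 24 h and 0.763 at 6 h, as labelled. The part of such an offset between arrays in the small differences of the synthetases, or of the synthesis, oxidation and other members, was not tested. Lipe, hormone-sensitive lipase, read 398 with estradiol against 433 in the control at 24 h, and 699.7 with the estradiol label against 784 with the control label at 6 h.

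**Figure D3:**
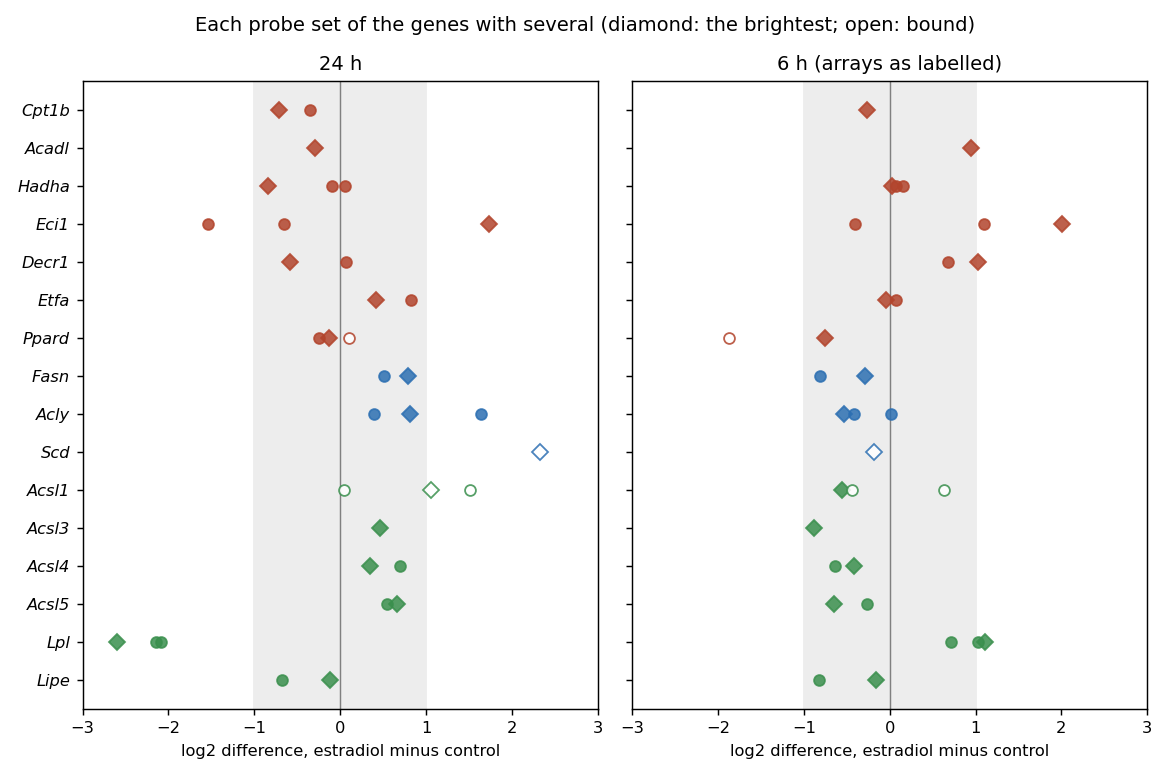
Log2 difference of estradiol minus control for each measured probe set of the genes with several, at 24 h (left) and for the arrays as labelled at 6 h (right), with a diamond for the brightest and open symbols for bounds. The 3 probe sets of Lpl lie together, and those of Eci1 spread from -1.54 to 1.74 at 24 h.

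Differences at the 2 times, which share no array, pointed opposite ways for most members. Of 28 members measured at both times 21 had opposite signs, 75%, where 57.0% of 3226 genes had. With the 6 h labels exchanged the same 21 of 28 would share a sign, and so would the 57.0% of all genes. Lower at 24 h and higher with the estradiol label at 6 h were 10 of 15 oxidation genes, 66.7%, where 33.5% of all genes were. Higher at 24 h and lower at 6 h were 5 of 9 uptake and binding genes and 3 of 4 synthesis genes, where 23.5% of all genes were. Ech1, Lpl and Fabp5 passed the rule at both times in opposite directions. Eci1 passed it at both times in the same direction with its brightest probe set only. Its next probe set was 2.90-fold lower at 24 h and 2.14-fold higher with the estradiol label at 6 h. Over the 28 members the differences of the 2 times had a Pearson r of -0.38 and a Spearman rho of -0.47, against -0.26 and -0.23 over all genes. These are values across genes of the same 4 arrays, given as a description.

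**Figure D4:**
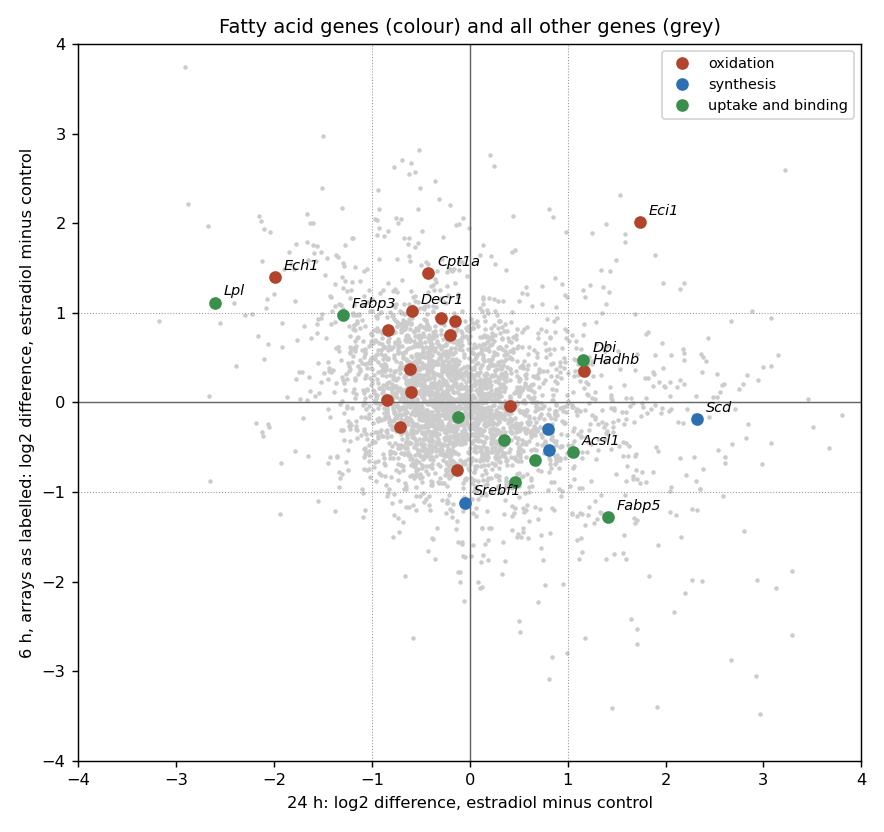
Log2 difference of estradiol minus control at 24 h (x axis) against that of the arrays as labelled at 6 h (y axis), for 28 member genes in the colours of their groups and all other measured genes in grey, with dotted lines at 2-fold. Lpl and Ech1 lie upper left, Fabp5 lower right and Eci1 upper right.

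A wider list of 96 other genes of fatty acid use had 45 measured genes. At 24 h 6 of 45 passed the rule as higher with estradiol and 6 as lower, where 9.12% and 8.45% of all genes did. At 6 h 5 of 42 were higher on the array labelled estradiol and 1 was lower, where 6.88% and 5.41% of all were. The median log2 differences of the list were -0.37 at 24 h and 0.19 at 6 h, against -0.17 and -0.01 over all genes. Higher at 24 h were Ucp2, an uncoupling protein, at 4.16-fold, Slc25a1, the carrier that exports citrate for synthesis, at 3.60-fold, and Me1, malic enzyme, at 2.77-fold. Slc25a1 read 1446 with estradiol against 402 in the control at 24 h, and Me1 read 641 with estradiol against 232 in the control. At 6 h these 3 genes differed by 1.05-fold at most. For Ucp2 and Slc25a1 the 24 h control, the array with the communication error, was the lowest array. The other arrays were at least 3.73-fold above it for Ucp2 and at least 2.05-fold for Slc25a1. The part of that array in these 2 differences was not tested. Insig1, which restrains SREBP processing, was 3.79-fold higher at 24 h and 3.01-fold lower with the estradiol label at 6 h. Gpam, the first enzyme of triglyceride synthesis, was at least 2.60-fold higher at 24 h.

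Genes of the list lower with estradiol at 24 h included Hsd17b4, an enzyme of peroxisomal beta-oxidation, at 2.37-fold lower. Cyp4a1, which oxidises the far end of fatty acids, was 2.33-fold lower and Slc27a1, a fatty acid transport protein, 2.27-fold. Slc27a1 read 493 with estradiol against 1122 in the control at 24 h, and 1203 with the estradiol label against 659 with the control label at 6 h. Pdk2, a kinase that turns off pyruvate dehydrogenase, was 4.45-fold higher with the estradiol label at 6 h, where it read 977 against 219.7 with the control label. Crot, the carnitine transferase of peroxisomes, was at least 2.48-fold higher at 6 h.

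The 1 test the design allows is a limma fit of treatment over both times with time as a term and 1 residual degree of freedom. It called 0 of 6157 probe sets at an adjusted p under 0.05, which is 0%, and 0 of 50 member probe sets. At an unadjusted p under 0.05 it listed 104 probe sets, of which 1 was a member. That was the brightest probe set of Eci1, with a log2 difference of 1.87 ± 0.35 (SE) and an adjusted p of 0.9993 in limma. The fit averages times at which most members pointed opposite ways, on labels that the estrogen-induced genes go against at 6 h.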

How the data were processed

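Probe set intensities were taken from the series' value table as the authors deposited it, 4 arrays of RNA pooled from 6 animals each. The submitters' processing notes name MAS5, with no version. Each deposited intensity column had a 2% trimmed mean of 500. Scan day and wash errors were read from the instrument records, deposited files of other values, per the file headers. Of 8799 probe sets 59 Affymetrix controls were left out. Of the rest 7006 had exactly 1 symbol in the platform annotation, 308 several and 1426 none, and all 40 member genes were found by gene identifier in the RefSeq table, with 0 symbols changed.

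Signals scaled to a common trimmed mean were raised to a floor, the 40th percentile of the array, before log2 was taken. Where the dimmer array lay at its floor a fold is a lower bound, and where both did none is given. A share or median covers the genes above the floor on at least 1 of the 2 arrays compared. Values of all 4 arrays are printed for members past the rule, for the brighter ones of each group, and for the measured genes of the Fabp, Acsl and Cpt families and the measured transcription factors. From the wider list the 10 genes with the largest differences past the rule were named. Members and lists were chosen with earlier results of these data known. Limma 3.58.1 was used with Benjamini-Hochberg adjustment. The steps were tested on simulated arrays. The alternatives were other scalings, floors, a pseudocount of 100.3, fold rules and ways to combine probe sets. The number of arrays limits the precision.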

Additional observations from a re-analysis of the deposited data

Results flagged for a closer look

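Of the members, 3 genes differed at least 2-fold in opposite directions at the 2 times. The log2 difference of estradiol minus control was -1.99 at 24 h and 1.40 at 6 h for Ech1, -2.60 and 1.11 for Lpl, and 1.41 and -1.28 for Fabp5. The difference between the times was not tested, and the labels at 6 h are in doubt, as described above. Among all genes measured at both times, 122 of 3226 passed the rule in opposite directions and 27 in the same direction.

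The annotation gave 7 further probe sets several symbols, 1 of them a member's, and these were left out above. Of them 1 had an at least 4.02-fold higher signal with estradiol at 24 h, and another a 2.06-fold higher signal with the estradiol label at 6 h. A different one was 2.48-fold lower with estradiol at 24 h, at 97.7 against 242 in the control. No gene is named from them.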

How the results depend on the processing

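The counts of members past the rule were 6 higher and 3 lower at 24 h and 5 higher and 2 lower at 6 h. They did not move with arrays scaled to a common median. With quantile normalization only the higher count at 6 h moved, to 4. Values as deposited already had the trimmed mean of the main scaling, so that setting repeats the main one and is no check. With a floor at the 20th percentile 5 were lower at 24 h and 5 at 6 h, and with one at the 60th percentile 0 were lower at 6 h. A pseudocount in place of the floor left 3 higher and 1 lower at 6 h. The 1.5-fold rule gave 9 higher and 10 lower at 24 h, and 10 higher and 6 lower at 6 h. The 3-fold rule gave 2 higher at 24 h, and 1 higher and 0 lower at 6 h. When the probe sets of each gene were averaged 4 were higher at 24 h and 2 at 6 h, and without probe sets of suffixed names 3 were higher at 6 h. Leaving out probe sets low on the 24 h control, a setting chosen after seeing the data, removes 0 member probe sets, so it could not move the counts and is no check of them. With the 60th percentile floor the log2 differences of Acsl1 at 24 h and Srebf1 at 6 h became -0.13 and 0.043, which are set by the raised floors. Eci1 became -0.16 at 24 h and 0.65 at 6 h with the mean of its probe sets, and -0.65 at 24 h and -0.41 at 6 h with its probe set of plain name, because its probe sets disagree. The call of Decr1 at 6 h was lost with quantile normalization, at 0.98, with the 60th percentile floor, the pseudocount, the mean of probe sets and the plain probe set. That of Fabp3 at 24 h was lost with the 60th percentile floor, at -0.20, and with the pseudocount, at -0.81. Lpl at 6 h fell under the rule with the pseudocount, at 0.99, and with the mean of its probe sets, at 0.95, and Fabp5 at 6 h with the pseudocount, at -0.95, and the 60th percentile floor, at -0.76. Acsl1 at 24 h was under it with the pseudocount, at 0.64, and the mean of probe sets, at 0.61, and Srebf1 at 6 h with the pseudocount, at -0.80. Scaling to a common median moved the median over all genes by 0.14 at 24 h, and the split of all genes past the rule at 24 h was 314 higher against 291 lower in the main setting, 388 against 205 with that scaling and 339 against 219 with quantile normalization. Limma called 0 probe sets in each alternative, with 60 to 377 at an unadjusted p under 0.05. No pairing of animals or replicates was possible because each group is 1 array with no replicate number to share. Arrays were matched only by time. Each fold sets estradiol against control within 1 time, and the limma fit, with time as a term, averages that difference over the 2 times. Genes near the floor have only bounds.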
